A study of Mus musculus with 2 samples.

Results

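The promoters of 34 transcription factors that direct the development of tissues other than the B cell lineage were examined in the map of accessible chromatin of splenic B cells. These are master regulators of muscle, heart, gut, liver, pancreas, kidney, cartilage, neural crest and nervous system, from the paired box, SRY-related HMG box, GATA, NK, LIM, T-box, forkhead and basic helix-loop-helix families and several further homeobox families. They were chosen by name, and 33 of the 34 were found by symbol among the 22350 protein-coding genes of chromosomes 1 to 19 and X in GENCODE M1. The neural factor Sox1 was not found by symbol and is described apart.

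The B cells came from the spleens of 8 weeks old C57/Bl6 mice of genotype Trp53+/+ that were given a mock treatment, and were enriched with magnetic beads against the surface protein B220. Nuclei were treated with DNase I, an enzyme that cuts open DNA in preference to DNA wrapped in nucleosomes, and regions rich in the resulting fragments were called DNase I hypersensitive sites (DHS). The data are 1 peak list of 47542 DHS from 1 DNaseI library, with no replicates, and an input library that was not used here. The depth of the library is unknown, so a promoter without a DHS is one where the caller reported none, and a site open in few cells cannot be told apart from a site weakly open in all cells.

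Accessible DNA at a promoter is where transcription factors and RNA polymerase gain entry, and promoters rich in the dinucleotide CpG are accessible in most cell types, largely because they hold few methylated cytosines and few stable nucleosomes. Genes of the kind studied here are known for unusually long CpG-rich stretches. In cells of a foreign lineage these stretches are often held silent by Polycomb complexes, which place methyl groups on lysine 27 of histone H3. That mark was not analysed here.

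A gene was said to have a promoter DHS when a DHS overlapped by at least 1 bp the window reaching 5 kb upstream and 2 kb downstream of an annotated transcription start site (TSS) of that gene. Of the 33 developmental factors, 7 had one, which is 21.2% with an exact 95% interval from 8.98 to 38.9%. These were Pax3, Pax6, Gata6, Nkx2-5, Lhx1, Lhx2 and Isl2. The share among all protein-coding genes was 57.0%. All intervals given here cover counting error only.

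The comparison was repeated within classes of promoter CpG content. The CpG-rich class held promoters whose 1000 bp around the most upstream TSS were at least 55% GC, with a ratio of observed to expected CpG no lower than 0.6. Of the 19 CpG-rich developmental factors, 4 had a promoter DHS (Pax3, Gata6, Lhx1 and Lhx2), or 21.1% (exact 95% interval 6.05 to 45.6%), against 85.5% of 8611 CpG-rich protein-coding genes. Of the other 14 factors, 3 had one (Pax6, Nkx2-5 and Isl2), or 21.4% (4.66 to 50.8%), against 39.2% of 13739 genes outside the class. In this last comparison the background lay inside the interval of the factors. The class rests on the most upstream TSS alone. With genes classed by any of their TSSs, 6 of 23 CpG-rich factors had a promoter DHS (26.1%), against 85.1%. When protein-coding genes were weighted to the same number of CpG in the 1000 bp around the TSS as the developmental factors, 73.2% of them had a promoter DHS.

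**Figure D1:**
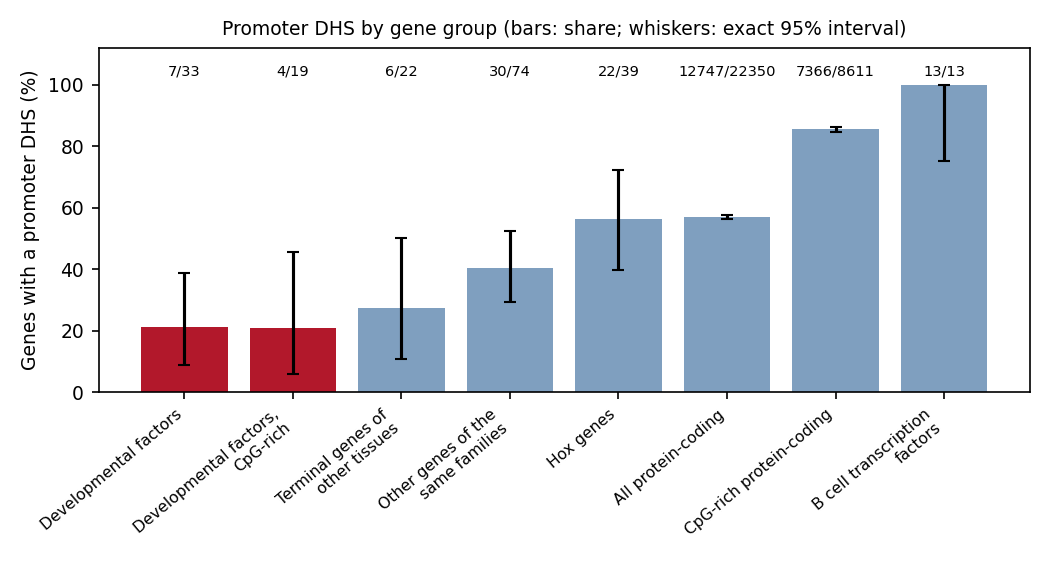
Share of genes with a promoter DHS (vertical axis, in percent) in each gene group; bars give the share, whiskers the exact 95% interval, and the numbers above the bars the genes with a DHS of all genes in the group. The developmental factors (red) stand at 21.2%, below CpG-rich protein-coding genes at 85.5% and B cell transcription factors, of which all 13 had one.

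The same map was open at the genes of the cells' own lineage. All 13 B cell transcription factors examined, among them Pax5, Ebf1 and Ikzf1, had a DHS in the promoter window and also over an annotated TSS. Pax5, the paired box factor that maintains B cell identity, had a top score of 265, and the 13 top scores ranged from 116 to 446. The score is the value that the authors' peak caller gave each DHS. Its scale is not stated, and it is used here only to rank DHS within the list.

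Cell type markers were checked in the same way. All 6 B cell markers had a promoter DHS, with top scores from 84.0 to 269, and none of the 6 T cell markers had one. A promoter DHS was called at 3 of 6 myeloid markers with top scores from 18.2 to 51.1, at the erythroid gene Klf1 (178), at 3 of 6 endothelial markers (Pecam1 at 213, Cdh5 at 132 and Kdr at 8.92) and at 3 of 6 stromal markers with top scores from 21.0 to 52.4. Among those with none were the myeloid genes Csf1r, Lyz2 and Mpo and the erythroid genes Gata1, Hba-a1, Hbb-b1 and Epor. Every marker but Kdr lay outside the CpG-rich class, where 39.2% of protein-coding genes had a promoter DHS, against 57.0% of all. With lists of 6 genes, 3 of 6 cannot be told apart from these shares. The part of other cell types in the sites described below was not tested.

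The promoter DHS of the developmental factors ranked low. The 7 genes carried 17 promoter DHS with scores from 7.68 to 67.1, and only 1 of the 17, at Isl2, reached the median score of the list, 32.65. The median top score per gene was 18.1, against 114 (quartiles 75.6 and 164) for CpG-rich protein-coding genes with a promoter DHS. All 7 lay below that first quartile, from percentile 0.774 for Pax6 to percentile 20.3 for Isl2. Pax6, Nkx2-5 and Isl2 lie outside the CpG-rich class, which rests on the most upstream TSS alone. The first quartile was 41.6 for genes outside the class and 59.0 for all protein-coding genes. Isl2 lay above both of these and the other 6 below both. The median width of the top DHS was 1090 bp, against 1427 bp for CpG-rich genes, but under assignment to the nearest TSS the order turned, at 1391.5 and 1364 bp.

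**Figure D2:**
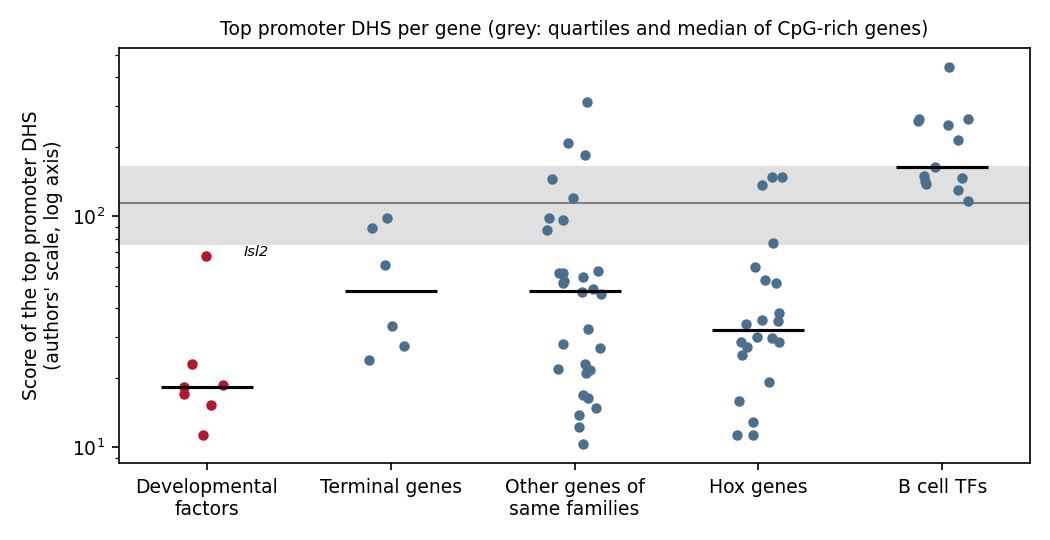
Score of the highest promoter DHS of each gene that had one (vertical log axis, authors' scale); points are genes, black lines medians, and the grey band and line the quartiles and median of CpG-rich protein-coding genes. All 7 developmental factors (red), of which 4 are CpG-rich themselves, lie below the band, with Isl2 highest at 67.1, whereas the B cell transcription factors (TFs) start at 116.

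A DHS over an annotated TSS was found at 3 of the 33 factors (9.09%), Pax3, Lhx1 and Isl2, against 46.6% of all protein-coding genes. These are 3 of the 7 factors with a promoter DHS, against 10414 of 12747 protein-coding genes with one. Among the CpG-rich factors a TSS was covered at 2 of 19 (10.5%), against 74.0% of CpG-rich protein-coding genes. The percentages include the genes without any promoter DHS. It was 5 of 40 (12.5%) for other CpG-rich genes of the same families and 3 of 17 (17.6%) for CpG-rich Hox genes, so that few TSSs were covered in these groups too. The sites of the other 4 genes lay beside their TSSs.

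The LIM homeobox factors were the family with most sites, at 3 of 4 genes. Isl2, a factor of motor neurons, had the highest score and by far the widest site. Its main DHS (mm9, chr9:55387184-55394953, score 67.1) was 7770 bp wide, the third widest of the whole list, and began 705 bp downstream of the most upstream TSS. It covered 3 of the 4 annotated TSSs of the gene, ran past its end and took in 90.6% of the gene body. Among 16513 protein-coding genes of at least 5 kb, Isl2 was the only 1 with at least 90% of its length under a single DHS, a count made after this site had been seen. CpG-rich sequence made up 67.0% of the site. Smaller sites lay upstream (757 bp, score 13.6) and just inside the gene (381 bp, score 13.8). The middle of the wide site fell in an intron of low CpG content, and is shown for that contrast on the gene's plus strand, with each CpG in capitals (chr9:55390919-55391218).
Isl2 DHS centre: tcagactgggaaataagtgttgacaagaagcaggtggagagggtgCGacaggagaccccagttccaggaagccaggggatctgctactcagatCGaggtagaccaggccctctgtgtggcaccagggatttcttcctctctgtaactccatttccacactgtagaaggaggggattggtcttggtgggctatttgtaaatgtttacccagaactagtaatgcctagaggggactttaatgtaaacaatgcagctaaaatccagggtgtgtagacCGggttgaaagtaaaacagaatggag
These 300 bases hold 3 CpG, or 1.0 per 100 bp, against 5.29 per 100 bp over the whole site.

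Lhx1, a factor of kidney and head development, had 2 promoter DHS. The higher (chr11:84338691-84339683, 993 bp, score 18.1) lay over its most upstream TSS and was CpG-rich along its whole length. Its centre was 1 bp from the TSS of the long noncoding RNA gene 1500016L03Rik, so that the site cannot be assigned to either gene. The lower (1093 bp, score 15.6) lay inside Lhx1, partly over exons. Shown is the part of the site just upstream of Lhx1 that lies outside annotated exons, on the minus strand with CpG in capitals (chr11:84339037-84339161).
Lhx1 DHS: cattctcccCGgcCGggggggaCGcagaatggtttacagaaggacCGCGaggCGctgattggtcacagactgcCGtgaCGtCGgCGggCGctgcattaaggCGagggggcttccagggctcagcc
Its 125 bases hold 12 CpG, or 9.6 per 100 bp, far more than the centre of the Isl2 site.

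Pax3, which specifies neural crest and muscle progenitors, also had a site over its start. The DHS (chr1:78192320-78194009, 1690 bp, score 22.8) covered all 3 annotated TSSs and reached from 300 bp upstream of the first to 1389 bp downstream. A weaker one (382 bp, score 7.7) followed inside the gene. The central 300 bp of the larger site, partly exon, are shown on the minus strand with CpG in capitals (chr1:78193015-78193314).
Pax3 DHS centre: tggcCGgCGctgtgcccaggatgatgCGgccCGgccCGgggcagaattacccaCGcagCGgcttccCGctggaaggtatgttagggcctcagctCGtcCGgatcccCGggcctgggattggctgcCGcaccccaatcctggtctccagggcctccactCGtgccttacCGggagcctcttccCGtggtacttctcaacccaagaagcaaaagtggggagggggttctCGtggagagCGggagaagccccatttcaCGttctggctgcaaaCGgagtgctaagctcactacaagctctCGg
The stretch holds 20 CpG, and Pax3 was the CpG-rich factor with the highest promoter score, at percentile 4.41 of CpG-rich genes.

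The other paired box gene with a site was Pax6, the regulator of eye development. It had a single DHS of 407 bp (chr2:105516506-105516912, score 11.2), which lay within exon sequence 7.45 kb downstream of the most upstream of its 29 annotated TSSs and 423 bp from an internal one. All of it was CpG-rich, with 11.3 CpG per 100 bp. It was also the 1 site of the 17 whose central 300 bp held the word CCACNAGGG of the insulator protein CTCF, a word in 2.26% of the promoter DHS of CpG-rich genes. It is shown here with 10 flanking bases on each side and the word in capitals, on the plus strand (chr2:105516726-105516754).
Pax6 CTCF word: gcgccggaggCCACGAGGGacccagagcg
The word is a description of the sequence, since binding was not measured.

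Lhx2, a factor of forebrain and eye development, and Nkx2-5, the cardiac homeobox factor, had 4 promoter DHS each. At Lhx2 the top one (chr2:38195075-38196164, 1090 bp, score 16.9) began 274 bp inside the gene. The others were 2 upstream sites (scores 8.92 and 7.68) and 1 in an intron (score 10.4). At Nkx2-5, 3 of the 4 lay in a row upstream, the closest ending 1321 bp before the TSS. Their scores were 15.1, 13.7 and 13.7, and the widest was the top one (chr17:26979831-26981662, 1832 bp). The remaining one (475 bp, score 12.5) lay inside the gene, and the TSS itself was not covered.

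**Figure D3:**
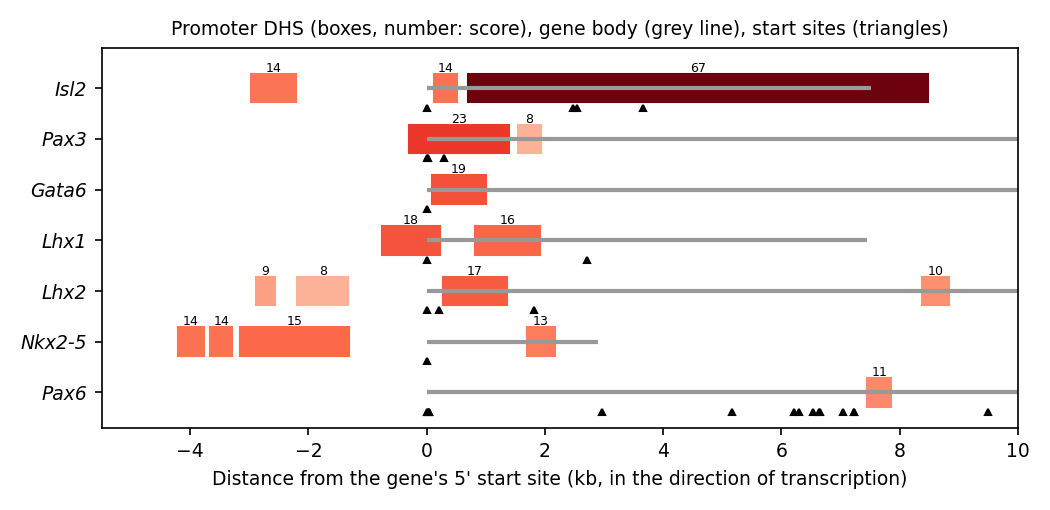
Promoter DHS of the 7 developmental factors (boxes, with the score above each and darker red for higher scores) by distance from the most upstream TSS in kb, with the gene body as a grey line and annotated TSSs as triangles. Isl2 carries a site of 7770 bp over most of its length, while the sites of the other genes are narrower and score at most 22.8.

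Gata6, a factor of endoderm and heart, had 1 DHS of 921 bp with a score of 18.6 on chromosome 18 (from 11052595 to 11053515). It began 87 bp downstream of the only annotated TSS of Gata6, mostly in an intron. The TSS nearest to its centre, at 490 bp, belonged to the long noncoding RNA gene 1010001N08Rik, and under assignment to the nearest TSS Gata6 lost its site. Gata4, the other GATA factor examined and a regulator of heart development, had none.

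No DHS was called at the promoters of the remaining 26 factors. They comprised Pax2 (kidney), Pax7 (muscle stem cells), Pax8 (thyroid) and Pax9 (tooth and pharyngeal pouch); all 4 SRY-related HMG box factors, Sox2 (neural and pluripotent cells), Sox9 (cartilage), Sox10 (neural crest) and Sox17 (endoderm); and Gata4. They further comprised Nkx2-1 (lung and thyroid), Nkx2-2 (pancreas and ventral neural tube), Isl1 (motor neurons and heart), the T-box limb factors Tbx3 and Tbx5, and the forkhead factors Foxa1 and Foxa2 of liver and other endoderm. Also without a site were the homeobox factors Six2 (nephron progenitors), Cdx2 (intestine), Otx2 (forebrain) and Dlx5 (skeleton). The last were all 6 basic helix-loop-helix factors, namely Neurog1 and Neurod1 (neurons), Olig2 (oligodendrocytes), Myod1 (skeletal muscle), Hand2 (heart and limb) and Twist1 (mesoderm).

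Among these 26, 15 had a CpG-rich promoter, and Six2 and Twist1 had most CpG, with 121 and 114 in the 1000 bp around the TSS. The stretches just upstream of their TSSs, at which no DHS was called, are shown for comparison with the sequences above, on each gene's own strand with CpG in capitals (Six2, chr17:86087595-86087743, minus strand, and Twist1, chr12:34642386-34642535, plus strand).
Six2 upstream: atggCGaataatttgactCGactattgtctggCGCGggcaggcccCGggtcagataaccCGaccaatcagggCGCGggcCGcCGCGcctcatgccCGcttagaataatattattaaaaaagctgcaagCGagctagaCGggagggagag
Twist1 upstream: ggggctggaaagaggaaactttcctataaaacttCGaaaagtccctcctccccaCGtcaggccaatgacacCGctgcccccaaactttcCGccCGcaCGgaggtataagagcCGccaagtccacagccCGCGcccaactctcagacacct
They hold 14 CpG in 149 bases and 9 CpG in 150 bases. The number of CpG was alike in the factors with a site and those without, with medians of 57 and 56 per 1000 bp.

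Long CpG-rich sequence was shared by the developmental factors and their relatives. Its length was taken as the bases within 5 kb of the most upstream TSS that lay in any 200 bp window meeting the same GC and CpG limits. Its median was 2820 bp for the 33 factors and 1200 bp for CpG-rich protein-coding genes, with 2050 bp for the 74 other genes of the same families and 2290 bp for 39 Hox genes. For the 14 factors outside the CpG-rich class the median was 2635 bp, against 220 bp for all genes outside it. The background outside the class is therefore not alike in CpG-rich length. Of the factors, 27 of the 33 were in the top decile of all protein-coding genes (1770 to 7220 bp). Within that decile, 6 of the 27 factors had a promoter DHS, or 22.2% (exact 95% interval 8.62 to 42.3%), against 77.9% of the other 2218 genes (76.1 to 79.6%). The median top scores there were 18.4 and 118. Among all genes the share with a DHS fell somewhat at the longest stretches, from 83.5% of the genes with 1770 to 1910 bp to 68.2% of those with 2940 to 7220 bp, where 14 of the factors lay and 3 had a site. Factors with and without a promoter DHS had like lengths, with medians of 2820 and 2775 bp.

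**Figure D4:**
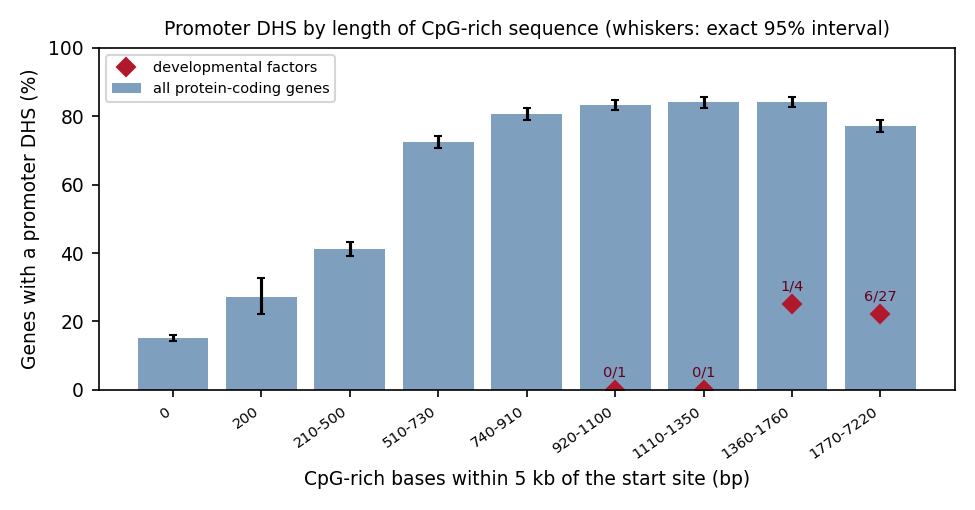
Share of protein-coding genes with a promoter DHS (bars, in percent, with exact 95% intervals) by the length of CpG-rich sequence within 5 kb of the TSS, in bp; red diamonds give the share of the developmental factors in the same bin, with their counts. In the bin of 1770 to 7220 bp the bar stands at 77.2% and the factors at 22.2%.

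Short words bound by known factors were counted in the central 300 bp of the 17 promoter DHS, on either strand and without mismatch. The GC box GGGCGG, the word of Sp1, was in 4 of the 17, at Gata6, Lhx2, Nkx2-5 and Pax6, against 37.4% of 12666 promoter DHS of CpG-rich genes. The groups differ in class, since 8 of the 17 sites lay at the genes Pax6, Nkx2-5 and Isl2, which lie outside the CpG-rich class. The word GAGGAAGT of PU.1, a factor of B cells and myeloid cells, was in 2, at Lhx1 and Lhx2, against 2.49%. The words of EBF1 (CCCNNGGGA, 8.44% of the 12666), the octamer factors (ATGCAAAT, 0.924%) and the neuronal repressor REST (GGACAGCGC, part of its site, 0.671%) were in 0 of the 17. With 17 sites, counts of these rarer words cannot be compared with the background. Around the TSS itself, a window of 300 bp held a GC box at 9 of the 19 CpG-rich factors, against 79.7% of CpG-rich genes, and at 14 of all 33 factors (42.4%), against 45.8% of all protein-coding genes.

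The surroundings of the developmental factors were also poor in DHS. In the gene body and 50 kb on each side, 18 of the 33 (54.5%) had no DHS of any kind, against 23.0% of all protein-coding genes and 6.38% of CpG-rich ones. CpG-rich genes that likewise lacked a promoter DHS are a closer comparison, and 44.1% of these 1245 genes had none, against 11 of the 15 CpG-rich factors without a promoter DHS (73.3%). DHS outside any promoter window were absent around 23 of the 33 factors (69.7%), against 40.4% of all protein-coding genes, 26.2% of CpG-rich genes and 55.5% of CpG-rich genes without a promoter DHS.

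For the 26 factors without a promoter DHS, the distance from the most upstream TSS to the nearest DHS had a median of 126.5 kb. The farthest were Sox2 at 568 kb, Tbx3 at 418 kb and Isl1 at 400.0 kb. The nearest were Myod1 at 2.13 kb, Cdx2 at 7.51 kb and Pax7 at 7.84 kb. Over all 33 factors, 15 (45.5%) were more than 100 kb from any DHS, against 19.6% of all protein-coding genes, 6.34% of CpG-rich genes and 43.1% of CpG-rich genes without a promoter DHS. Of the 15 CpG-rich factors without a promoter DHS, 9 were.

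**Figure D5:**
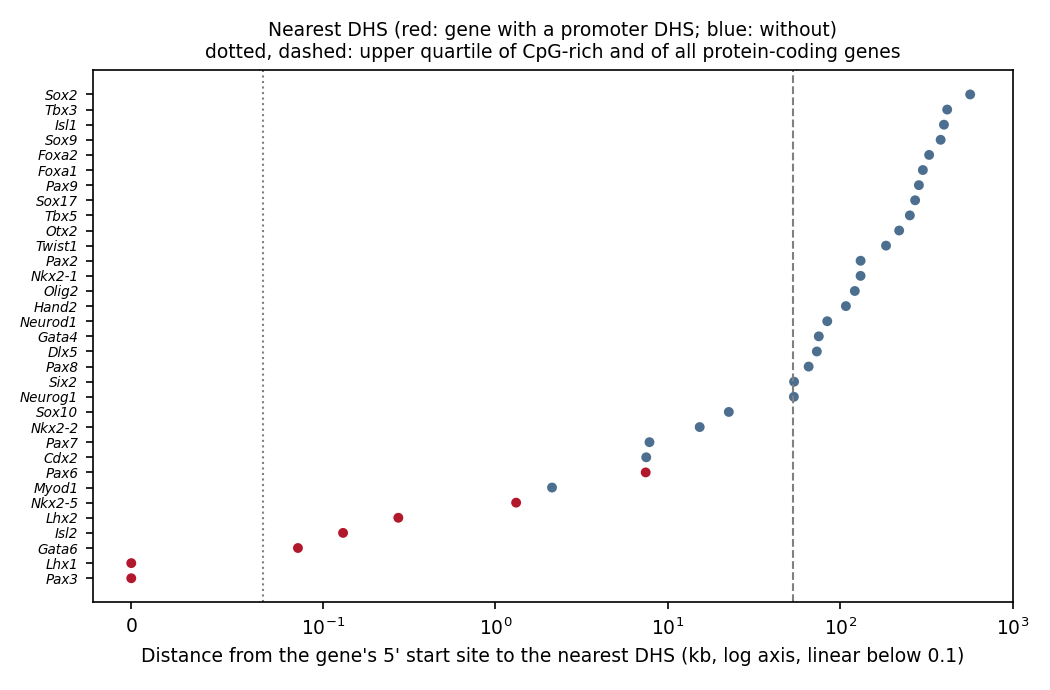
Distance from the most upstream TSS of each developmental factor to the nearest DHS (horizontal axis in kb, logarithmic and linear below 0.1 kb); red points are factors with a promoter DHS and blue points those without, and vertical lines mark the upper quartile of CpG-rich genes (dotted, 0.0685 kb) and of all protein-coding genes (dashed, 53.4 kb). Distances range from 0 at Pax3 and Lhx1 to 568 kb at Sox2.

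The factors also lay farther from other genes. The nearest protein-coding TSS of another gene was at a median distance of 78.5 kb, against 21.7 kb for all protein-coding genes, 22.5 kb for CpG-rich genes and 61.3 kb for CpG-rich genes without a promoter DHS. That neighbour had a promoter DHS at 16 of the 33 factors (48.5%), against 59.2%, 76.3% and 45.7% in the same 3 groups. Of the 15 CpG-rich factors without a promoter DHS, which match the last group, 3 had such a neighbour. At 10 of the 26 factors without a promoter DHS the neighbour had one. Among these were Sox10, whose neighbour Polr2f at 23.1 kb had a top score of 105, and Myod1, whose neighbour Kcnc1 at 20.02 kb had one of 120.5.

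A few factors without a promoter DHS had sites nearby. Pax7 carried 8 DHS in its gene body, all but 1 of them in introns, with scores from 7.18 to 48.6, and 1 in its flank, and none in its promoter window. The highest of these (chr4:139298817-139300724, 1908 bp) lay 89.7 kb downstream of the TSS. Myod1 had a DHS over its last exon (chr7:53633977-53634553, score 20.3), just outside the promoter window, and stronger sites up to 120 near the potassium channel gene Kcnc1.

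At Nkx2-2 a strong DHS (chr2:147003220-147004652, 1433 bp, score 134) lay over the last exon, 16.04 kb from the most upstream TSS, and it was the only DHS within 50 kb of the gene. It ranked at percentile 91.0 of the list, above the promoter DHS of every developmental factor. Its central 300 bp held a GC box and the CTCF word, shown on the minus strand with the word in capitals (chr2:147004026-147004054).
Nkx2-2 CTCF word: cgggattttaCCACCAGGGggacacgccg
This word and the next were chosen for display after the values had been seen.

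Cdx2 had 7 DHS in its flanks and none at its promoter or in its body. The highest (chr5:148150277-148151302, 1026 bp, score 234) lay 31.9 kb upstream and inside the neighbouring gene Flt3, which encodes a receptor of blood progenitors. Next to it, also inside Flt3, was a site of 2180 bp with a score of 109. The higher of the pair held an exact octamer word in its central 300 bp, shown on the plus strand with the word in capitals (chr5:148150832-148150859).
Cdx2 flank octamer word: tttaaatcctATGCAAATggagtcactg
Which gene these flanking sites act on was not measured.

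Related genes outside the list had a higher share with a site, with an interval that overlaps that of the factors. Of 74 other genes of the same families, leaving out Pax5, which is among the B cell factors, 30 (40.5%, exact 95% interval 29.3 to 52.6%) had a promoter DHS, with a median top score of 47.7. Among the CpG-rich ones it was 18 of 40 (45.0%), still below the 85.5% of CpG-rich protein-coding genes. Apart from Pax5, the highest scores in a family were those of Sox12 at 312, Six5 at 208, Foxa3 at 145 and Neurog2 at 120.5. No gene of the Hand, Olig, Twist and Myod/Myf/Myog families had a promoter DHS. Of 39 Hox genes, which pattern the body axis, 22 (56.4%, 39.6 to 72.2%) had one, with a median top score of 32.01. In this window the share was close to the 57.0% of all protein-coding genes. Within 1 kb of a TSS it was 15 of 39 (38.5%), against 53.65%, and a TSS was covered at 7 of 39 (17.95%), against 46.6%. One DHS can also count for several Hox genes, which the interval does not allow for. Hoxa3 and Hoxa6, for example, had the same top score (147.4) and width (2322 bp). Of the 17 CpG-rich Hox genes, 8 had a promoter DHS (47.1%), against 85.5%. Of 22 terminal genes of other tissues, such as those for albumin and insulin, 6 (27.3%, 10.7 to 50.2%) had one, an interval that overlaps that of the developmental factors. Only 3 of those 22 had a CpG-rich promoter, against 19 of the 33 factors.

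Sox1 was placed on mm9 by an exact match of its RefSeq promoter sequence, with its TSS on chromosome 8 at 12395519. The promoter was CpG-rich, with a GC content of 68.4% and 0.789 as its ratio of observed to expected CpG. No DHS was called there, and the nearest lay 276 kb away.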

How the data were processed

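DNaseI sequencing of 1 library from B220-selected splenic B cells was analysed. The deposited peak list gives each DHS a position and a score from the authors' peak caller. The peak names are those of MACS; the version and settings that the methods give for ChIP-seq are not tied to this list, and the scale of its score is not given in the sources used here. The build mm9, BWA 0.6.2 and SAMtools are named in the submitters' processing notes. Per the methods, the digest with the best qPCR signal to noise was sequenced. No read counts are given, so depth is unknown.

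DHS were overlapped with TSSs of GENCODE M1 (mm9, NCBI build 37) in Python 3.11.15, pandas 2.3.3 and pyfaidx 0.9.0.4. The functions were tested on simulated intervals. GC and CpG were read from the genome. Reference genes were all protein-coding genes, by CpG class, and lists drawn up from general knowledge. Members and lists were chosen with earlier results of these data known. Every member is named, with its DHS or, for the nearest 3 and farthest 3 without one, the distance. Displayed sequences were to be 300 bp long and were shortened to leave out untranslated regions and noncoding exons. The erythroid marker list is reported only in part here. With 1 library no test was made. Intervals are exact (Clopper-Pearson). The alternatives were other windows, overlap rules, score limits, TSS sets, CpG classes and flanks.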

Additional observations from a re-analysis of the deposited data

How the results depend on the processing

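No paired analysis was possible because there is 1 library with peaks, and no library could be left out. Over the alternatives, 32 values stayed within 1.5 times the reported value or, for the weighted share, within its interval, and 7 moved further. That interval, for 33 genes, was 54.5 to 86.7%, so wide that staying within it says little. The weighted share of 73.2% was 57.8% when weighted by the length of the promoter windows, 70.9% within 1 kb of a TSS and 66.2% at or above the median score. Weighting by CpG-rich length, which gave 78.4%, and counting Sox1 were chosen after seeing the data. Keeping only DHS at or above the median score left a promoter DHS at 1 of 33 developmental factors (Isl2), against 50.2% of all protein-coding genes. Such a DHS was left at 0 of 19 CpG-rich factors, against 79.4%. It was left at 17 of 74 other genes of the same families (23.0%) and 11 of 39 Hox genes (28.2%). With that limit a TSS was covered at 1 factor. Raising the limit on the ratio of observed to expected CpG to 0.75 left 1 of 9 CpG-rich factors with a DHS (11.1%), against 88.6%. Within 1 kb of a TSS, 3 terminal genes had a DHS. The number of factors was 6 within 1 kb of a TSS (without Nkx2-5), 6 with only the most upstream TSS (without Pax6) and 6 under assignment to the nearest TSS (without Gata6). The unknown depth limits every statement on absence, most of all for weak sites such as those found here.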
